A study of Homo sapiens with 12 samples.

Results

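The genes described here are those of MHC class I and antigen presentation. They are the class I light chain B2M, the heavy chains HLA-B, HLA-C, HLA-E and HLA-F, the peptide transporter subunits TAP1 and TAP2, the loading factor TAPBP and the class I transactivator NLRC5. They were chosen by name, with earlier results of these data known. All 9 were found by symbol among the 60658 rows of the deposited gene table. Expression was measured by RNA sequencing in 12 libraries of K-562, a human erythroleukemia cell line, as FPKM (fragment counts divided by transcript length in kilobases and by the library's mapped fragments). There were 4 groups of 3 libraries. MYB_KnockDown cells stably expressed only the 3xTY1 tag and were transfected with siRNA si2992 against MYB. MYB-WT_Rescue and D152V_Rescue cells received the same siRNA, in stable lines expressing the constructs labelled 3xTY-hcM and 3xTY-D152V. The siRNA_Control group was the 3xTY1 line given a non-targeting siRNA. RNA was collected 24 hours after transfection in every group. All lines were selected with G418, and whether a line was a pool or a clone is not stated in the labels. Each rescue construct was studied in 1 line, so construct and line cannot be told apart.

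Class I molecules display peptides from inside the cell to cytotoxic T cells. A heavy chain pairs with beta-2-microglobulin, the product of B2M, in the endoplasmic reticulum. Peptides cut by the proteasome are pumped in by the TAP1-TAP2 transporter and are loaded with the help of tapasin, the product of TAPBP. Class I genes respond to interferons and to NF-kB, and NLRC5 is a main activator of class I promoters. K-562 cells are known for carrying very little class I on their surface and are widely used as targets of natural killer cells.

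B2M (ENSG00000166710) lies on chromosome 15 at 44711517 to 44718145 and NLRC5 on chromosome 16 at 56989557 to 57083520, in the RefSeq annotation of GRCh38. The other 7 genes lie in the MHC region of chromosome 6. TAP2 (32821831 to 32838739) and TAP1 (32845209 to 32853704) are neighbours there on the minus strand. TAPBP (33299694 to 33314078) lies further along on the same strand. Promoter windows are shown for the 3 genes whose transcripts passed the test below, since these windows hold the sites through which class I genes are known to be controlled. Each window of 300 bases runs from 250 bases before the RefSeq transcription start to 50 after it, 5′ to 3′ on the gene's strand, from RefSeq on GRCh38.p14.
B2M, chr15:44711267-44711566, plus strand: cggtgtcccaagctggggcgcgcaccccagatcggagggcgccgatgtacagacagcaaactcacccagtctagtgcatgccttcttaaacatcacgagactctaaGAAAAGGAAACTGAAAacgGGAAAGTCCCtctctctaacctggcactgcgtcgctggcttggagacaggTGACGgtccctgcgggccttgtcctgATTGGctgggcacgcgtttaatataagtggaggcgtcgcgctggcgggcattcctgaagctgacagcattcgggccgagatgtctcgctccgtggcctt
TAP1, chr6:32853655-32853954, minus strand: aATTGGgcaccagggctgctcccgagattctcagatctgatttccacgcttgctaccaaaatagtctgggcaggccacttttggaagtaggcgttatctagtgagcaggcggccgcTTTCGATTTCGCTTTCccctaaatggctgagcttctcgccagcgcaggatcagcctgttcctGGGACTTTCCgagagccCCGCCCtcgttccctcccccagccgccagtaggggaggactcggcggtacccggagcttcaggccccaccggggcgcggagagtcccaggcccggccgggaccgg
TAP2, chr6:32838690-32838989, minus strand: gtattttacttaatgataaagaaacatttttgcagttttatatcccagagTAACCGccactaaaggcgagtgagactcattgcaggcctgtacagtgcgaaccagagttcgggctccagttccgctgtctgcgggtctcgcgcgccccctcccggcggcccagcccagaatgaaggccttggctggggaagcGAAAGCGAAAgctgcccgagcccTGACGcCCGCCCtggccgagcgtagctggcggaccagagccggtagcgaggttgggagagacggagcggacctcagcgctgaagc
Capitals mark matches, on either strand, to 7 short motifs: CCAAT, the core TGACG of cyclic AMP response elements, an interferon-response pattern (GAAA, any 2 bases, GAAA), an NF-kB pattern (GGG, any 2 bases, TT, any base, CC), the GC box GGGCGG, and the MYB patterns TAACNG and CAACNG.

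The windows differed in which motifs they held. The interferon-response pattern was found at 2 overlapping places in B2M and 2 in TAP1, and at 1 place in TAP2, while 3.57% of the 35116 RefSeq promoter windows of this length held it. The NF-kB pattern was found once in B2M and once in TAP1 and not in the TAP2 window, against 5.68% of all windows. CCAAT was present once in B2M and once in TAP1 (34.6% of all windows), and TGACG once in B2M and once in TAP2 (24.6%). GGGCGG was present once in TAP1 and once in TAP2, against 45% of all windows. The MYB pattern TAACNG matched once, in TAP2, at a share of 20.8% of all windows, and CAACNG (32.9%) matched in none of the 3. The window of TAPBP held the interferon-response pattern at 2 overlapping places, the NF-kB pattern once and GGGCGG 3 times. The windows of HLA-B and HLA-C held CCAAT 3 and 4 times and TGACG once each. HLA-B also held the NF-kB pattern once, and HLA-C held GGGCGG once. HLA-F held CCAAT 2 times and the interferon-response pattern once. HLA-E and NLRC5 had no entry in the promoter table. A match is a description of the letters only.

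The targeted gene was examined before the class I genes. MYB averaged 30.2 ± 3.59 FPKM in MYB_KnockDown, 124 ± 8.87 in MYB-WT_Rescue, 91.1 ± 8.11 in D152V_Rescue and 120.1 ± 14.2 in siRNA_Control libraries (SD, n = 3 each). These values do not separate introduced from endogenous MYB transcripts. The summed FPKM of a library was 1215578 in MYB_KnockDown replicate 1 and between 672616 and 798362 in the other 11. Correlations of that library with the rest of its group were 0.929 and 0.930, below the 0.983 or more of all other pairs within groups, so results that change without it are given both ways. All 12 erythroid markers examined reached 1 FPKM, among them the globin gene HBE1 and GATA1. Their sum was 2045 to 6437 FPKM in MYB_KnockDown, 1034 to 2112 in MYB-WT_Rescue, 2392 to 4064 in D152V_Rescue and 1511 to 3144 in siRNA_Control libraries. Of the 12, 1 was called higher and 7 lower in wild-type rescue minus knockdown (median -1.20), beside 37.6% of all tested genes called. In wild-type rescue minus control 0 were higher and 3 lower (9.62% of all genes). D152V rescue minus wild-type rescue had 3 higher and 0 lower (12.1%), and D152V rescue minus knockdown 0 higher and 4 lower (25.1%). D152V rescue minus control had 1 higher and 1 lower (9.55%), and none was called in knockdown minus control (11.3%). Of markers of other cells, 4 of 10 lymphoid, 2 of 10 monocyte and dendritic and 3 of 10 fibroblast and epithelial genes reached 1 FPKM in any library, and MS4A1, CD1C and KRT14 were listed at 0 in all. The lymphoid sum was 23.3 to 105 FPKM in MYB_KnockDown, 40.1 to 67.0 in MYB-WT_Rescue, 85.3 to 125 in D152V_Rescue and 21.2 to 27.8 in siRNA_Control libraries. It came mostly from CD3D. The monocyte and dendritic sum was 10.7 to 29.9 FPKM in MYB_KnockDown, 11.3 to 14.3 in MYB-WT_Rescue, 4.49 to 5.67 in D152V_Rescue and 16.4 to 25.6 in siRNA_Control libraries. The part of these marker differences in the class I results was not tested. In bulk libraries, fewer cells of a kind and less RNA per cell cannot be told apart.

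Levels of the 9 genes spanned more than 4 orders of magnitude. B2M was the most abundant in every library, between 390 and 1395 FPKM. TAPBP, TAP2 and HLA-E followed in that order by mean in siRNA_Control and D152V_Rescue libraries. In MYB-WT_Rescue the highest TAP2 library and the lowest TAPBP library both stood at 29.2 FPKM, and in MYB_KnockDown HLA-E (12.3 to 15.6 FPKM) overlapped TAP2 (10.5 to 12.9). HLA-C and TAP1 were low and overlapped each other in MYB_KnockDown and siRNA_Control. In MYB-WT_Rescue the lowest HLA-C library (2.95 FPKM) and the highest TAP1 library (2.94 FPKM) nearly met. HLA-B, HLA-F and NLRC5 stayed below 1 FPKM in all 12 libraries. The 6 other genes held at least 1 FPKM in all 12 libraries, so each entered the test. A gene was tested when it reached 1 FPKM in at least 3 libraries, which 13393 genes did.

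**Figure D1:**
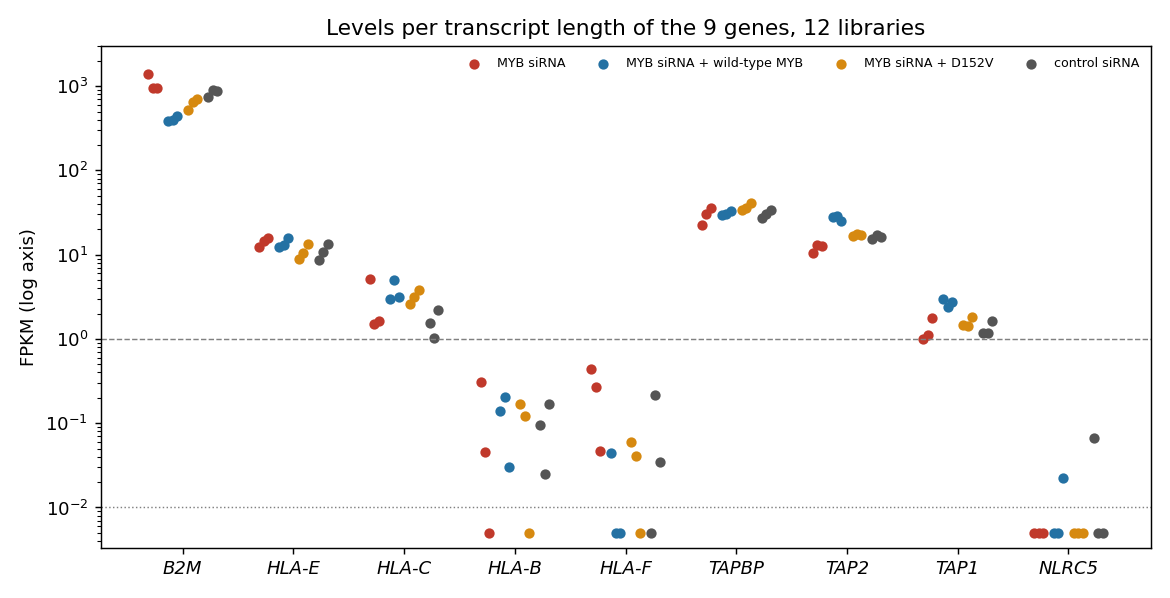
FPKM of the 9 genes in the 12 libraries, on a log axis, with a point for each library and the groups side by side in the order of the legend. The dashed line marks 1 FPKM, and points under the dotted line are listed at 0. B2M lies above 390 FPKM throughout, and HLA-B, HLA-F and NLRC5 stay under 1 FPKM.

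B2M was lower in both rescue lines than in the knockdown. In libraries 1, 2 and 3 it held 1395, 942 and 948 FPKM in MYB_KnockDown, 390, 393 and 446 in MYB-WT_Rescue, 516, 656 and 701 in D152V_Rescue, and 738, 894 and 877 in siRNA_Control. No group overlapped another, and MYB-WT_Rescue was the lowest and MYB_KnockDown the highest. The means were 1095 ± 260, 410 ± 31.3, 624 ± 96.5 and 836 ± 85.7 FPKM in the same order (SD, n = 3 each). Tests were made with limma on log2(FPKM + 1) over all 12 libraries, a scale that understates changes of low values, with adjustment over the 13393 genes and a call at an adjusted p under 0.05. B2M in wild-type rescue minus knockdown was -1.39 (SE 0.19, limma adjusted p = 3.89e-04), a mean at 37.4% of the knockdown level. Wild-type rescue minus control was -1.03 (limma adjusted p = 0.00534), at 49.0% of control. Both calls were kept in each of the 22 alternatives run, which include leaving out each library, but the difference from the knockdown was -0.76 under quantile normalization.

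D152V rescue minus knockdown was -0.80 for B2M (limma adjusted p = 0.0123), and the call was lost without D152V_Rescue replicate 1 (adjusted p = 0.0535), in a fit of the 6 libraries compared (0.115) and under quantile normalization (-0.10, adjusted p = 0.669). D152V rescue minus wild-type rescue was 0.60 (95% interval 0.19 to 1.00, limma adjusted p = 0.0602) and did not pass. It passed in 5 alternatives, with an adjusted p of 0.00274 without MYB_KnockDown replicate 1, 0.0160 under quantile normalization, 0.0411 under median-ratio scaling, 0.0115 in a fit of the 6 libraries compared and 0.00972 with the length trend removed. D152V rescue minus control was -0.43 (95% interval -0.84 to -0.02, limma adjusted p = 0.198), and passed without MYB_KnockDown replicate 1 (0.0185) and in a fit of the 6 libraries compared (0.0411). Knockdown minus control was 0.37 (95% interval -0.04 to 0.78, limma adjusted p = 0.193) and did not pass. It was 0.18 without MYB_KnockDown replicate 1 and -0.17 under quantile normalization.

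**Figure D2:**
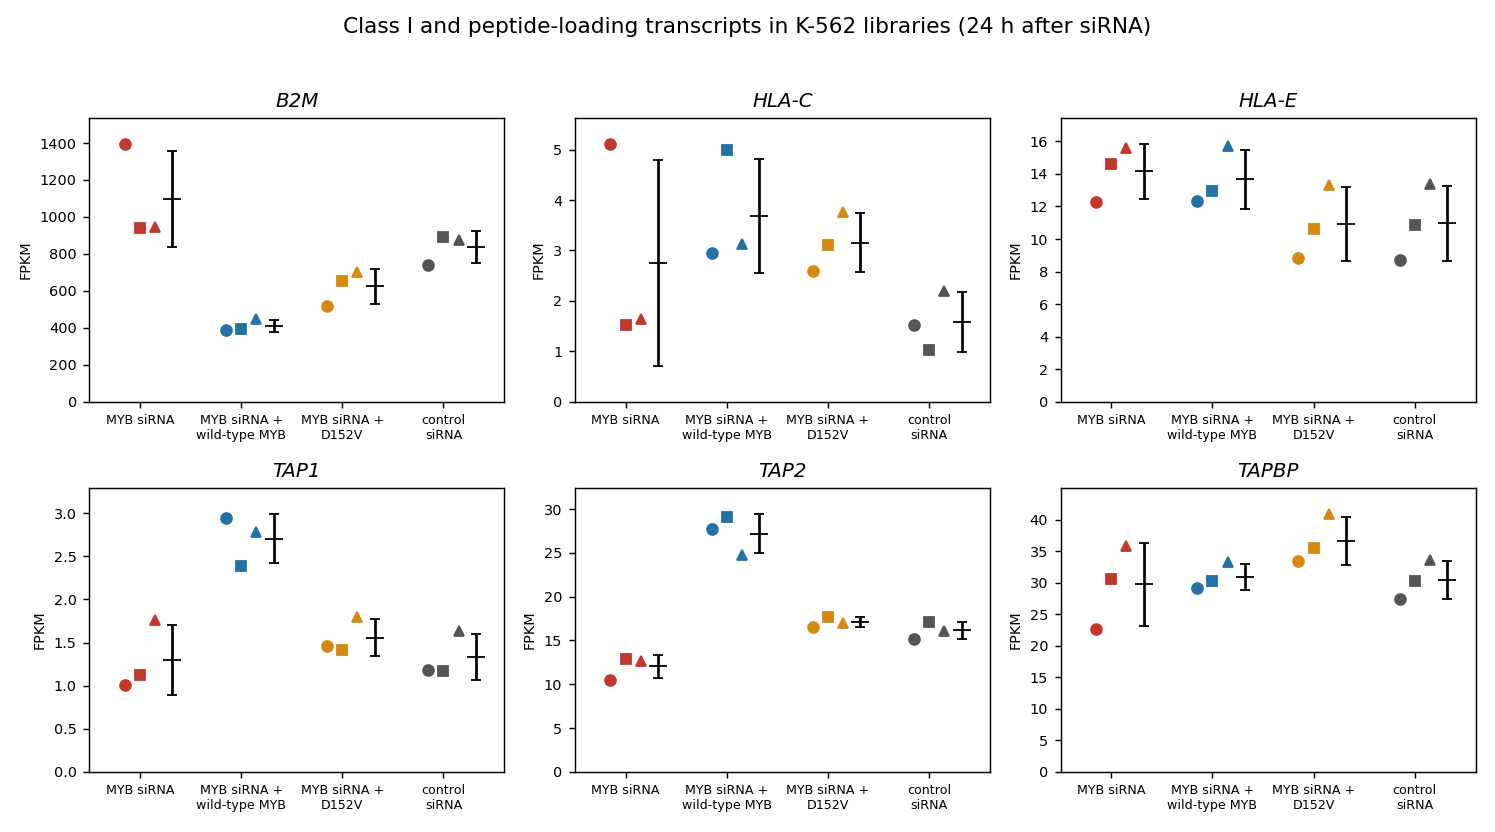
FPKM of the 6 tested genes in each library, in 4 groups. Circles, squares and triangles are replicates 1, 2 and 3, and black bars are the mean ± SD of 3 libraries. The 3 wild-type rescue libraries lie lowest for B2M (390 to 446 FPKM) and highest for TAP2 (24.8 to 29.2 FPKM).

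The heavy chains were scarce, and none of the tested ones passed in any of the 6 comparisons. HLA-C, a classical heavy chain that also engages killer cell receptors, held 5.11, 1.52 and 1.64 FPKM in MYB_KnockDown, 2.95, 4.99 and 3.13 in MYB-WT_Rescue, 2.60, 3.11 and 3.76 in D152V_Rescue, and 1.53, 1.02 and 2.19 in siRNA_Control. Both rescue groups lay above every control library, and MYB_KnockDown replicate 1 lay apart from its own group. Wild-type rescue minus control was 0.86 (95% interval 0.16 to 1.56, limma adjusted p = 0.126), and D152V rescue minus control was 0.70 (95% interval -0.00 to 1.41, limma adjusted p = 0.226). Without MYB_KnockDown replicate 1, HLA-C passed in 4 comparisons by limma. The wild-type rescue was then higher than the knockdown by 0.84 (adjusted p = 0.0107) and the D152V rescue by 0.68 (adjusted p = 0.0386). Against control the limma adjusted p values were then 0.00868 for the wild-type and 0.0237 for the D152V rescue. In a fit of the 6 libraries compared, they were 0.0260 and 0.0303. With the length trend removed, HLA-C passed in wild-type rescue minus control (limma adjusted p = 0.0307) and minus knockdown (0.0461).

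HLA-E, a nonclassical chain that presents leader peptides of other class I chains to the NKG2A receptor, was the most abundant heavy chain. It held 12.3, 14.6 and 15.6 FPKM in MYB_KnockDown, 12.3, 12.9 and 15.7 in MYB-WT_Rescue, 8.81, 10.6 and 13.3 in D152V_Rescue, and 8.71, 10.8 and 13.4 in siRNA_Control. The groups overlapped in every comparison, and within each group the library numbered 1 was the lowest and that numbered 3 the highest. Knockdown minus control was 0.35 (95% interval -0.05 to 0.75, limma adjusted p = 0.203), and D152V rescue minus knockdown was -0.36 (95% interval -0.76 to 0.04, limma adjusted p = 0.160). With the replicate number as a block, the adjusted p values were 0.0533 and 0.0325, but the numbers were not taken to pair these groups. The remaining 4 differences ran from -0.31 to 0.30.

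HLA-B, a classical chain, was listed at 0.308, 0.0449 and 0 FPKM in MYB_KnockDown, 0.140, 0.206 and 0.0300 in MYB-WT_Rescue, 0.170, 0.122 and 0 in D152V_Rescue, and 0.0961, 0.0252 and 0.170 in siRNA_Control. HLA-F, a nonclassical chain, stood at 0.443, 0.269 and 0.0470 FPKM in MYB_KnockDown, 0.0447, 0 and 0 in MYB-WT_Rescue, 0.0594, 0.0405 and 0 in D152V_Rescue, and 0, 0.218 and 0.0343 in siRNA_Control. NLRC5 was listed at 0 in 10 libraries, at 0.0226 in MYB-WT_Rescue replicate 3 and at 0.0670 in siRNA_Control replicate 1. Class I heavy chains share sequence and vary between people. Of 50-base windows of the canonical transcript, 6.76% for HLA-C, 6.16% for HLA-E, 20.6% for HLA-B and 35.4% for HLA-F also occurred in another gene, so their separate values are uncertain. For TAPBP 41.3% of windows were shared, with most of these in ENSG00000289100, so its value is uncertain too. B2M and NLRC5 shared none.

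The transporter genes moved with the wild-type rescue. TAP2 held 10.5, 12.9 and 12.7 FPKM in MYB_KnockDown, 27.7, 29.2 and 24.8 in MYB-WT_Rescue, 16.6, 17.7 and 17.0 in D152V_Rescue, and 15.2, 17.1 and 16.1 in siRNA_Control. The wild-type rescue libraries were above all others and the knockdown libraries below all others, while D152V rescue and control overlapped. The difference in wild-type rescue minus knockdown was 1.12 (SE 0.11, limma adjusted p = 8.78e-05), a mean 2.26 times the knockdown level. Wild-type rescue minus control was 0.72 (limma adjusted p = 0.00282), a mean 1.68 times control. D152V rescue minus wild-type rescue was -0.64 (limma adjusted p = 0.00373), a mean at 62.9% of the wild-type rescue. These 3 calls held in all 22 alternatives.

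D152V rescue minus knockdown was 0.48 for TAP2 (limma adjusted p = 0.0138). The call was lost without D152V_Rescue replicate 2 (adjusted p = 0.0565) and in a fit of the 6 libraries compared (0.114). Knockdown minus control was -0.40 (95% interval -0.65 to -0.15, limma adjusted p = 0.0465). It did not hold in 15 of 22 alternatives, among them leaving out any 1 of the 9 libraries of the control and rescue groups, with adjusted p then from 0.0565 to 0.161. D152V rescue minus control was 0.08 (95% interval -0.17 to 0.33, limma adjusted p = 0.785).

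TAP1 was also highest in the wild-type rescue, at a much lower level per length than TAP2. It held 1.01, 1.12 and 1.76 FPKM in MYB_KnockDown, 2.94, 2.39 and 2.78 in MYB-WT_Rescue, 1.46, 1.41 and 1.80 in D152V_Rescue, and 1.18, 1.17 and 1.64 in siRNA_Control. Wild-type rescue libraries were above all others, and the other 3 groups overlapped. TAP1 in wild-type rescue minus knockdown was 0.70 (SE 0.16, limma adjusted p = 0.00619), a mean 2.08 times the knockdown. The call was lost only in a fit of the 6 libraries compared (adjusted p = 0.0544). Wild-type rescue minus control was 0.67 (limma adjusted p = 0.0205) and was lost without siRNA_Control replicate 1 or 2 (adjusted p = 0.0853 and 0.0845) or MYB-WT_Rescue replicate 1 or 3 (0.0729 and 0.0669). D152V rescue minus wild-type rescue was -0.53 (95% interval -0.88 to -0.19, limma adjusted p = 0.0484), a call lost in 15 of 21 alternatives. Those include leaving out any 1 library of the rescue or control groups or MYB_KnockDown replicate 2, with adjusted p from 0.0563 to 0.154.

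The TAP2 to TAP1 ratio of FPKM averaged 9.71 ± 2.25 in MYB_KnockDown, 10.2 ± 1.78 in MYB-WT_Rescue, 11.1 ± 1.58 in D152V_Rescue and 12.5 ± 2.44 in siRNA_Control libraries (SD, n = 3 each), and these ranges overlapped between all groups. The ratio of B2M to the sum of HLA-C and HLA-E averaged 64.6 ± 13.6, 23.7 ± 1.80, 44.7 ± 3.40 and 68.0 ± 10.1 in the same order. It ran from 21.9 to 25.5 in the wild-type rescue libraries, below every library of the other groups.

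TAPBP did not pass in any comparison. It held 22.7, 30.6 and 35.8 FPKM in MYB_KnockDown, 29.2, 30.2 and 33.3 in MYB-WT_Rescue, 33.5, 35.5 and 40.9 in D152V_Rescue, and 27.5, 30.3 and 33.6 in siRNA_Control. Only the 2 rescue groups did not overlap, with D152V rescue minus wild-type rescue at 0.24 (95% interval -0.11 to 0.59, limma adjusted p = 0.418). Its largest difference was D152V rescue minus knockdown at 0.31 (95% interval -0.04 to 0.66, limma adjusted p = 0.163), which passed without MYB_KnockDown replicate 3 (0.45, adjusted p = 0.0479).

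**Figure D3:**
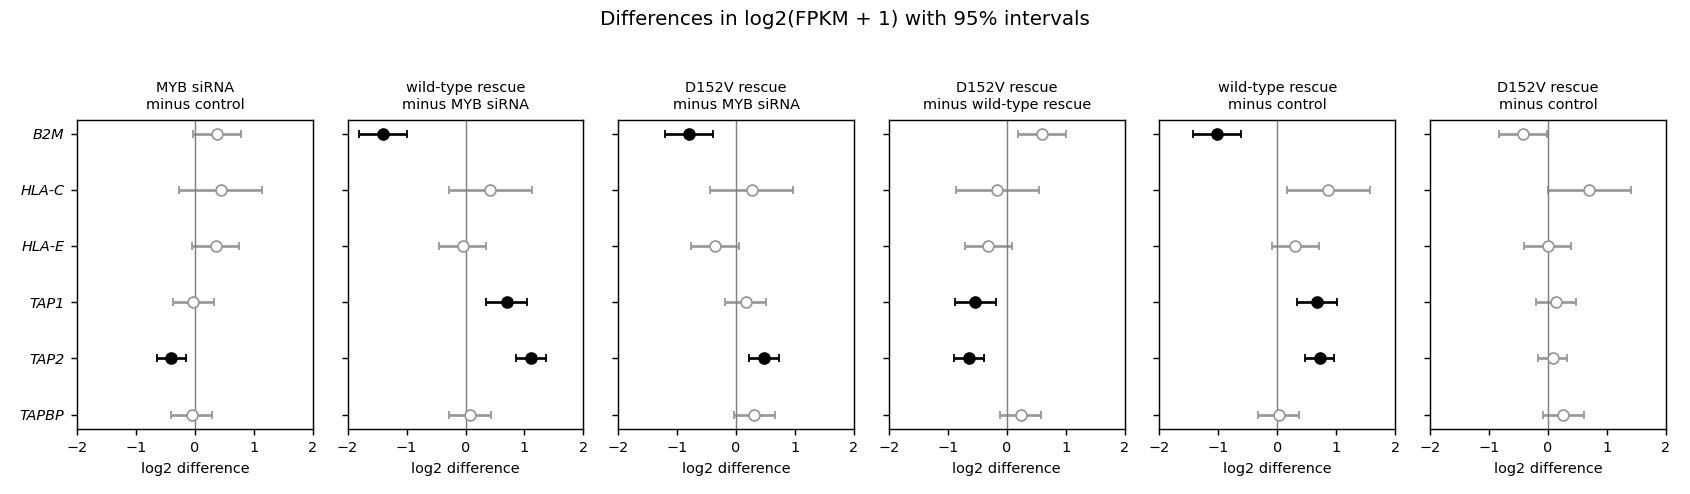
Differences in log2(FPKM + 1) of the 6 tested genes in the 6 comparisons, with 95% intervals. Filled black points passed at a limma adjusted p under 0.05, and open grey points did not. Wild-type rescue shows lower B2M and higher TAP1 and TAP2 against both the knockdown and the control.

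Read over the group, the share of genes called differed between comparisons. In knockdown minus control, 1 of 6 tested genes was called (TAP2, lower), beside 11.3% of all tested genes (3.94% higher, 7.38% lower). For wild-type rescue minus knockdown it was 3 of 6 (TAP1 and TAP2 higher, B2M lower), beside 37.6% of all genes (20.6% higher, 16.9% lower). D152V rescue minus knockdown had 2 of 6 (TAP2 higher, B2M lower), beside 25.1% (13% higher, 12% lower). D152V rescue minus wild-type rescue had 2 of 6 (TAP1 and TAP2 lower), beside 12.1% (5.96% higher, 6.19% lower). Wild-type rescue minus control had 3 of 6 (TAP1 and TAP2 higher, B2M lower), beside 9.62% (5.04% higher, 4.58% lower), and D152V rescue minus control had 0 of 6 by limma, beside 9.55% (4.61% higher, 4.94% lower). In that last comparison the lowest unadjusted limma p values were 0.0407 for B2M and 0.0502 for HLA-C. The share of all genes with unadjusted p values this low is not given here. The median difference of the 6 genes was 0.49 in wild-type rescue minus control, beside -0.02 over all tested genes, and -0.23 in D152V rescue minus wild-type rescue, beside -0.03. It was 0.16 beside -0.03 in knockdown minus control, 0.25 beside 0.03 in wild-type rescue minus knockdown, 0.21 beside 0.02 in D152V rescue minus knockdown, and 0.11 beside -0.04 in D152V rescue minus control. The comparisons share libraries, so they are not independent of each other. The genes were chosen with earlier results of these data known, so the counts beside these shares are descriptions.

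Differences involving the knockdown libraries moved with transcript length over the whole transcriptome. In wild-type rescue minus knockdown, the median log2 difference was -0.39 for genes with a canonical transcript of up to 1000 bases, -0.30 for those over 1000 and up to 2000 bases, 0.04 for those over 2000 and up to 4000 and 0.32 above 4000. In knockdown minus control the same medians were 0.32, 0.23, -0.05 and -0.23. MYB_KnockDown replicate 1 alone gave 0.76 for the shortest and -0.48 for the longest class against the control mean. B2M is short (943 bases) and TAP2 is long (5643 bases), with TAP1 (2685 bases) between them. In wild-type rescue minus control the medians ran from -0.11 to 0.07. How far single genes spread around these medians is not given here. With each library's length trend removed, an alternative chosen after seeing the data, TAP2 in knockdown minus control was -0.15 (limma adjusted p = 0.272) and in D152V rescue minus knockdown 0.25 (adjusted p = 0.0684), so both calls were lost. B2M and TAP2 kept their calls in wild-type rescue minus knockdown and in wild-type rescue minus control.

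**Figure D4:**
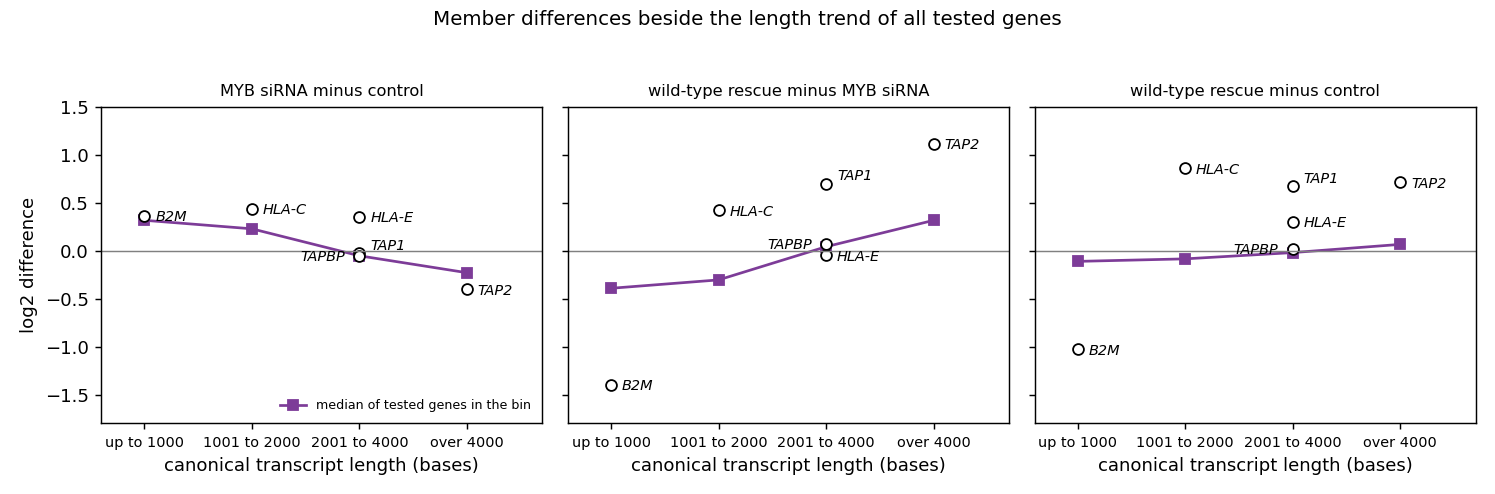
Log2 differences of the 6 tested genes (open circles) and the median of all tested genes (purple squares) in 4 classes of canonical transcript length, for 3 comparisons. The medians of all genes run from -0.39 to 0.32 in wild-type rescue minus knockdown and from -0.11 to 0.07 in wild-type rescue minus control.

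PSMB8 and PSMB9, which encode interferon-inducible subunits of the immunoproteasome, lie between and beside the TAP genes. PSMB8 (32840717 to 32844679, minus strand) is 530 bases from TAP1 and 1978 from TAP2, and PSMB9 (32854192 to 32859851, plus strand) starts 488 bases from the TAP1 start in the opposite direction. PSMB8 held 1.97, 1.60 and 1.78 FPKM in MYB_KnockDown, 0.786, 0.496 and 0.549 in MYB-WT_Rescue, 0.154, 0.215 and 0.156 in D152V_Rescue, and 0.693, 0.703 and 0.766 in siRNA_Control. Knockdown libraries were the highest and D152V rescue libraries the lowest, which is not the order of either TAP gene. PSMB8 reached 1 FPKM only in the knockdown libraries, so it was tested because it was high there. Knockdown minus control was 0.69 (limma adjusted p = 0.0105), wild-type rescue minus knockdown -0.79 (0.00100), and D152V rescue minus knockdown -1.24 (1.28e-04). D152V rescue minus wild-type rescue was -0.45 (limma adjusted p = 0.0369) and D152V rescue minus control -0.55 (0.0170). The call against control in the knockdown was lost without siRNA_Control replicate 1 or 2 (adjusted p = 0.0572 and 0.0530), and that in the D152V rescue without any 1 control library or D152V_Rescue replicate 1 or 3 (0.0558 to 0.0663). The call between the rescue lines was lost without any 1 of the 9 libraries of the control and rescue groups or MYB_KnockDown replicate 3 (0.0513 to 0.131). A fit of the 6 libraries compared also lost it (0.0643), as well as the call in knockdown minus control (0.134). With the length trend removed only D152V rescue minus knockdown passed among these 5.

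PSMB9 held 3.11, 0.807 and 1.59 FPKM in MYB_KnockDown, 2.38, 1.68 and 2.60 in MYB-WT_Rescue, 1.22, 1.46 and 1.40 in D152V_Rescue, and 0.857, 0.559 and 2.08 in siRNA_Control. It spread widely within the knockdown and control groups and passed in none of the 6 comparisons. Of the 50-base windows of TAP1, 20.1% also occur in PSMB8-AS1, which overlaps it on the other strand, and 35.3% of those of TAP2 occur in the row ENSG00000250264. The library kit was stranded, but whether the counting used strand is not given.

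**Figure D5:**
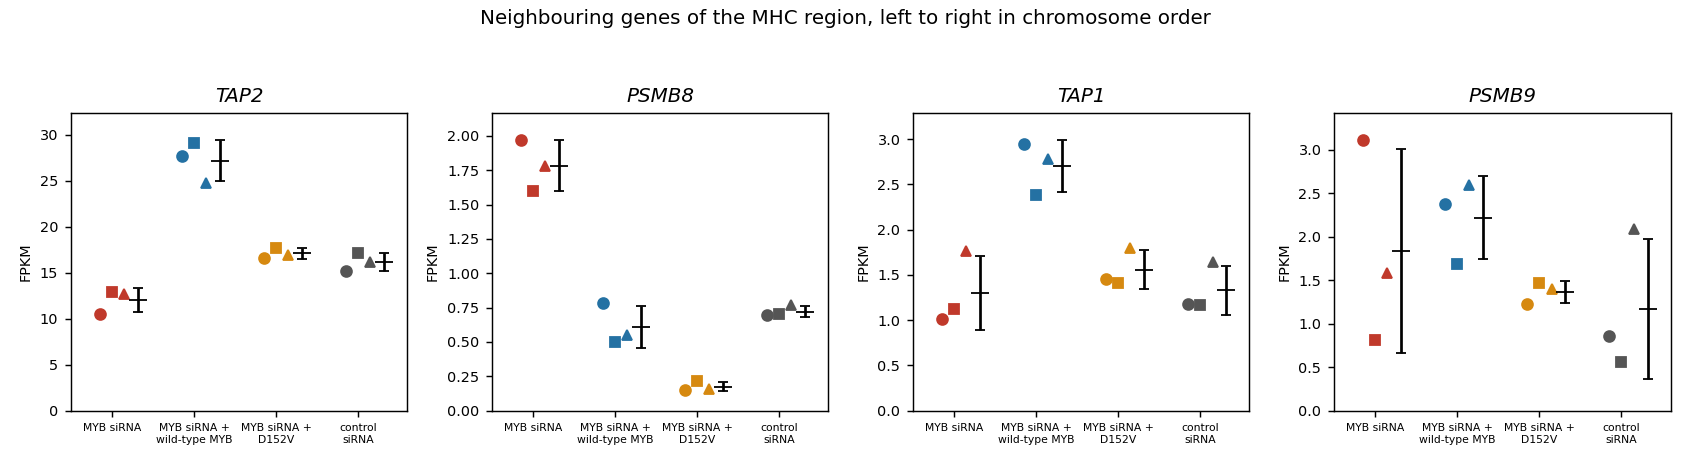
FPKM of TAP2, PSMB8, TAP1 and PSMB9, neighbours on chromosome 6, in each library of the 4 groups. Circles, squares and triangles are replicates 1, 2 and 3, and black bars are the mean ± SD of 3 libraries. TAP2 and TAP1 are highest in the wild-type rescue, and PSMB8 is highest in the knockdown and lowest in the D152V rescue.

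The other genes of peptide supply and quality control (proteasome activators, immunoproteasome subunits, trimming peptidases and chaperones, 18 genes of which 17 were tested) were called in both directions. Wild-type rescue minus knockdown had 3 higher and 3 lower of 17, near the 37.6% called over all genes. D152V rescue minus knockdown had 0 higher and 5 lower, beside 25.1% over all genes (13% higher, 12% lower). Knockdown minus control had 1 higher and 0 lower (11.3% over all genes), D152V rescue minus wild-type rescue 0 higher and 2 lower (12.1%), D152V rescue minus control 0 higher and 2 lower (9.55%), and wild-type rescue minus control none by limma (9.62%). PSMB8, tested because of its level in the knockdown, is the 1 gene higher in knockdown minus control. It is also among the lower genes in D152V rescue minus wild-type rescue, in D152V rescue minus control and in each rescue minus knockdown. PSMB10, the remaining immunoproteasome subunit, held 80.4, 29.5 and 28.8 FPKM in MYB_KnockDown, 15.9, 16.6 and 20.8 in MYB-WT_Rescue, 18.3, 17.9 and 17.3 in D152V_Rescue, and 18.2, 22.5 and 18.8 in siRNA_Control. All 3 knockdown libraries were above the other 9. Its difference in wild-type rescue minus knockdown was -1.17 (limma adjusted p = 0.0135). PSME2, a subunit of the interferon-inducible proteasome activator, differed by -1.10 in the same comparison (limma adjusted p = 0.01005). SPPL3, an intramembrane protease, differed by 0.94 (limma adjusted p = 0.0120), a call lost without MYB-WT_Rescue replicate 2 (adjusted p = 0.0560). In a fit of the 6 libraries compared, the calls of PSMB10 (adjusted p = 0.0899), PSME2 (0.0762) and SPPL3 (0.0840) were lost. Without MYB_KnockDown replicate 1, wild-type rescue minus knockdown had 5 higher and 3 lower, and D152V rescue minus wild-type rescue had 1 higher and 7 lower. Calls over all 13393 genes between the rescue lines also rose then, to 4209 from 1627. In wild-type rescue minus knockdown 3194 to 6055 of all genes were called over leaving out each library, against 5031 with all kept.

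Of the 7 constitutive proteasome beta subunits, which are not specific to class I, 3 were higher and 0 lower in knockdown minus control, beside 11.3% called over all genes. That count was 0 without any 1 of the 3 control libraries. In each rescue minus knockdown 0 were higher and 5 lower, beside 37.6% of all genes called for the wild-type and 25.1% for the D152V rescue. None passed between the rescue lines or in either rescue minus control. PSMB6, a catalytic subunit, held 328, 161 and 156 FPKM in MYB_KnockDown, 107, 80.6 and 108 in MYB-WT_Rescue, 101, 93.97 and 106 in D152V_Rescue, and 103, 102 and 117 in siRNA_Control. The knockdown libraries lay above all others, with replicate 1 highest. Without MYB_KnockDown replicate 1, 6 were higher and 1 lower in knockdown minus control, where 2697 of all 13393 genes were then called. Wild-type rescue minus knockdown then had 1 higher and 6 lower, and D152V rescue minus knockdown 0 higher and 6 lower. Over leaving out each library, 3194 to 6055 and 1639 to 4389 of all genes were called in these 2 comparisons. PSMB5 and PSMB6 kept their calls in wild-type rescue minus knockdown with the length trend removed. They lost them in a fit of the 6 libraries compared (limma adjusted p = 0.0786 and 0.0707).

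Regulators known to act on class I promoters (RFX, NFY, CREB, IRF and NF-kB family genes and CTCF) were all tested, 13 genes. In knockdown minus control 0 were higher and 3 lower, beside 11.3% called over all genes. In wild-type rescue minus knockdown 6 were higher and 1 lower, beside 37.6% over all genes (20.6% higher, 16.9% lower). In D152V rescue minus knockdown 4 were higher and 0 lower, beside 25.1% over all genes (13% higher, 12% lower). RELA, the main activating subunit of NF-kB, held 16.2, 34.1 and 31.2 FPKM in MYB_KnockDown, 63.8, 71.1 and 49.6 in MYB-WT_Rescue, 64.6, 48.7 and 47.2 in D152V_Rescue, and 57.4, 53.5 and 50.4 in siRNA_Control. The knockdown libraries lay below all others. RELA differed by 1.20 in wild-type rescue minus knockdown (limma adjusted p = 0.00387). CREB1, which binds cyclic AMP response elements, differed by -0.93 in knockdown minus control (limma adjusted p = 0.00347). NFKB1, the precursor of an NF-kB subunit, differed by -0.85 there (limma adjusted p = 0.0135), a call lost without siRNA_Control replicate 1 or 2 (adjusted p = 0.0675 and 0.0594). In a fit of the 6 libraries compared, the calls of CREB1 (adjusted p = 0.127) and NFKB1 (0.140) were both lost.

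IRF2, which binds interferon-response sites, held 5.02, 6.45 and 7.21 FPKM in MYB_KnockDown, 11.52, 11.17 and 11.96 in MYB-WT_Rescue, 8.90, 9.01 and 10.9 in D152V_Rescue, and 7.66, 6.75 and 7.56 in siRNA_Control. Wild-type rescue libraries were the highest, as they were for TAP1 and TAP2. The wild-type rescue minus knockdown was 0.81 (limma adjusted p = 0.00155) and wild-type rescue minus control 0.59 (limma adjusted p = 0.0201). It was the only regulator of 13 called between wild-type rescue and control with all 12 libraries, beside 9.62% of all genes. The call was lost without any 1 of the 6 libraries compared (adjusted p = 0.0578 to 0.0868). D152V rescue minus control had 0 higher and 1 lower regulators (9.55% over all genes), and none was called between the rescue lines (12.1%).

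Of 8 genes for ligands of NKG2D, an activating receptor of natural killer cells, 3 were tested. In knockdown minus control 2 of the 3, ULBP2 and MICA, were higher and 0 lower (11.3% called over all genes), and neither passed without any 1 of the 3 control libraries. Each rescue minus knockdown had 0 higher and 2 lower, beside 37.6% of all genes called for the wild-type and 25.1% for the D152V rescue. Each rescue minus control had 0 higher and 1 lower (9.62% and 9.55%), and none was called between the rescue lines (12.1%). ULBP2 held 8.24, 6.98 and 4.40 FPKM in MYB_KnockDown, 0.700, 0.924 and 0.578 in MYB-WT_Rescue, 1.70, 1.47 and 1.23 in D152V_Rescue, and 3.27, 3.35 and 2.87 in siRNA_Control. No groups overlapped. ULBP2 in wild-type rescue minus knockdown was -2.09 (limma adjusted p = 3.88e-05), a call kept in all 21 alternatives. MICA, encoded near HLA-B, held 8.33, 9.40 and 9.39 FPKM in MYB_KnockDown, 4.43, 5.13 and 4.74 in MYB-WT_Rescue, 4.66, 5.47 and 6.91 in D152V_Rescue, and 5.93, 5.24 and 6.03 in siRNA_Control. The knockdown libraries lay above the other 9. Wild-type rescue minus knockdown was -0.80 (limma adjusted p = 0.00177), a call lost with the length trend removed (adjusted p = 0.0890).

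Of 12 tested interferon receptor, kinase, STAT and SOCS genes, 1 was higher and 1 lower in wild-type rescue minus knockdown, beside 37.6% called over all genes. D152V rescue minus wild-type rescue also had 1 higher and 1 lower (12.1% over all genes). In knockdown minus control (11.3%), D152V rescue minus knockdown (25.1%) and D152V rescue minus control (9.55%) 0 were higher and 1 lower, and in wild-type rescue minus control none was called by limma (9.62%). IFNGR1, a chain of the interferon gamma receptor, held 5.65, 6.12 and 7.58 FPKM in D152V_Rescue, against 11.9996, 12.39 and 13.05 in siRNA_Control, with no overlap (difference -0.86, limma adjusted p = 0.00790). Of 16 tested interferon response genes, 2 were higher and 7 lower in wild-type rescue minus knockdown (37.6% over all genes). In knockdown minus control 3 were higher and 0 lower (11.3%). Both counts include PSMB8, which was tested only because of its level in the knockdown. The lower genes of each D152V rescue comparison given next include it too. D152V rescue minus knockdown had 2 higher and 5 lower (25.1%), and D152V rescue minus wild-type rescue 2 higher and 3 lower (12.1%). Wild-type rescue minus control had 2 higher and 2 lower (9.62%), and D152V rescue minus control 2 higher and 3 lower (9.55%). IFITM3, a membrane protein that blocks virus entry, had the largest called difference among the interferon response genes, D152V rescue minus knockdown at -5.04 (limma adjusted p = 8.28e-10). Of 12 MHC class II genes 2 were tested, and 1 passed in 1 comparison. That was HLA-DPB1, a class II beta chain, in wild-type rescue minus knockdown (-1.09, limma adjusted p = 0.0151), where 37.6% of all genes were called. The call was lost without MYB-WT_Rescue replicate 1 or 2 (adjusted p = 0.0505 and 0.0585) and in a fit of the 6 libraries compared (0.0817).

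FCGRT, the heavy chain of the neonatal Fc receptor, which also pairs with B2M, held 2.74, 0.534 and 1.06 FPKM in MYB_KnockDown, 0.277, 0.112 and 0.177 in MYB-WT_Rescue, 0.372, 0.320 and 0.261 in D152V_Rescue, and 0.880, 1.02 and 0.380 in siRNA_Control. Both rescue groups lay below every knockdown library. FCGRT reached 1 FPKM only in MYB_KnockDown replicates 1 and 3 and siRNA_Control replicate 2. It was therefore tested because of its level outside the rescue lines, mostly in the knockdown. Wild-type rescue minus knockdown was -0.94 (limma adjusted p = 0.0205). That call was lost without MYB-WT_Rescue replicate 2 or 3 (adjusted p = 0.0665 and 0.0505) and in a fit of the 6 libraries compared (0.0927). Of 9 tested genes of PRC2 and other silencers of class I, 2 were higher and 2 lower in wild-type rescue minus knockdown, near the 37.6% over all genes. EED, a core PRC2 subunit, held 28.8, 28.4 and 24.6 FPKM in D152V_Rescue, against 55.4, 37.2 and 39.4 in MYB_KnockDown (difference -0.65, limma adjusted p = 0.00977). The EED call was lost in a fit of the 6 libraries compared (adjusted p = 0.102).

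The patterns over the 12 libraries most like those of B2M, HLA-E and TAP1 were looked up by Pearson correlation of log2(FPKM + 1) among 9113 tested genes with a mean of at least 5 FPKM. All these points share 4 group means, so the values are descriptions. Most like B2M were ASB13 (r = 0.982, rho = 0.951), TK1 (0.972, 0.986) and PIGBOS1 (0.969, 0.916). Most like HLA-E were JUN (0.942, 0.853), SND1 (0.896, 0.825) and CA8 (0.882, 0.811). Most like TAP1 were ENSG00000249174 (0.943, 0.888), DNAJC3 (0.936, 0.902) and GFPT1 (0.934, 0.881).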

How the data were processed

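Per the labels' protocols, RNA came from an RNeasy kit and poly(A) libraries from a stranded TruSeq kit. The authors deposited 1 table of FPKM values with a column for each of 12 libraries. Per the submitters' processing notes, reads were handled with TopHat2 2.0.13, Cufflinks 2.2.1, Trimmomatic 0.33 and bcl2fastq 2.17.1.14 on GRCh38. Neither annotation nor use of strand is stated there. Per the series' design text, reads were 125-base pairs of ends and the 3 replicates were separate experiments. Groups were taken from the sample titles. No column belongs to other samples, and at most 0.455% of tested genes held exactly equal values in any pair of libraries.

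Read counts and depth are unknown, so no count model, interval or floor from depth was used. Whole reads could not be recovered: for low values, 3.46% of ratios (median over pairs of libraries) fell within 2% of their median. The 13393 genes with at least 1 FPKM in at least 3 libraries (98.4% with a symbol) were analysed as log2(FPKM + 1) in limma 3.58.1 (R 4.3.3), with group means, trended variances and 8 residual degrees of freedom. The 6 contrasts were adjusted by Benjamini-Hochberg over all tested genes. All 12 libraries share 1 estimate of spread, so a library outside a comparison can move its calls. The fit was tested on simulated data. Python 3.11.15, pandas 2.3.3 and matplotlib 3.10.9 made the tables and figures.

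The 9 genes and the other gene lists were chosen with earlier results of these data known. Named genes were the 9 genes, up to 4 called genes of each list with the largest difference in any contrast, the 3 most correlated genes for each of B2M, HLA-E and TAP1, and MYB. The text names fewer than the rule allows, and PSMB9 was added as a neighbour of TAP1. Other genes named were chosen after their values were seen. Results were recomputed without the filter, with a mean of at least 5 FPKM, a pseudocount of 0.1, robust moderation, median-ratio scaling, quantile normalization, a threshold of 0.01, the 6 compared libraries alone, the replicate number as a block, and without each library. A fit after subtracting the trend with transcript length from every library, and gene list counts without MYB_KnockDown replicate 1 or without each library, were added after seeing the data. Transcript lengths and shared 50-base windows came from GENCODE transcripts, positions and promoters from RefSeq.

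To see whether replicate numbers pair libraries, each library's departures from its group mean were correlated across genes. Same-numbered libraries of the rescue lines, by their titles, had r of 0.169, 0.153 and 0.233, so numbers were taken to pair these lines. In the other comparisons at least 1 pair was below 0.1, so numbers were not taken to pair those groups. This rule does not exclude a pairing there. Over all groups, r was over 0.1 in 9 of 18 same-numbered pairs and in 3 of 36 differently numbered pairs.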

Additional observations from a re-analysis of the deposited data

Results flagged for a closer look

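The difference between the rescue lines in their change against MYB_KnockDown passed its own test for both transporter genes. For TAP2 it was -0.64 (D152V_Rescue minus MYB-WT_Rescue on the log2(FPKM + 1) scale, limma adjusted p = 0.00373), from 16.6, 17.7 and 17.0 FPKM in D152V_Rescue, against 27.7, 29.2 and 24.8 in MYB-WT_Rescue. For TAP1 it was -0.53 (limma adjusted p = 0.0484), from 1.46, 1.41 and 1.80 FPKM in D152V_Rescue, against 2.94, 2.39 and 2.78 in MYB-WT_Rescue. Each is lower in 3 of 3 D152V libraries. The TAP1 call was lost in 15 of 21 alternatives, among them leaving out any 1 library of the rescue or control groups (adjusted p up to 0.154). With the replicate number as a block the adjusted p values were 0.00358 for TAP2 and 0.0229 for TAP1. Construct and stable line cannot be told apart in these differences.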

How the results depend on the processing

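The calls of B2M and TAP2 in wild-type rescue minus knockdown and in wild-type rescue minus control, and of TAP2 between the rescue lines, held in every alternative run. The number of the tested class I genes called was 1 in knockdown minus control, and 0 with no filter, quantile normalization, median-ratio scaling, an adjusted p under 0.01, a fit of the compared 6 libraries alone, or the length trend removed (0 to 1 over leaving out each library). It was 2 in D152V rescue minus knockdown, 1 under quantile normalization and with the length trend removed, and 0 at an adjusted p under 0.01 and with only the 6 libraries (1 to 3 over leaving out each library). Between the rescue lines it was 2, and 1 with a pseudocount of 0.1, no filter, a mean of at least 5 FPKM or an adjusted p under 0.01 (1 to 3 over leaving out each library). In D152V rescue minus control it was 0, and 2 with only the 6 libraries (0 to 2 over leaving out each library). Leaving out each library gave 3 to 4 in wild-type rescue minus knockdown and 2 to 4 in wild-type rescue minus control. Several differences that passed nowhere changed sign. In knockdown minus control these were B2M (-0.170 under quantile normalization), TAP1 (0.000784 under median-ratio scaling, 0.0143 with the length trend removed, -0.167 to 0.0661 over leaving out each library) and TAPBP (0.0756 with the length trend removed, -0.195 to 0.124 over leaving out each library). In wild-type rescue minus knockdown they were TAPBP (-0.0584 with the length trend removed, -0.101 to 0.218 over leaving out each library) and HLA-E (-0.147 to 0.0191). In wild-type rescue minus control they were TAPBP (-0.0466 to 0.0939) and MYB (-0.0456 to 0.123), and between the rescue lines HLA-C (-0.268 to 0.0329). HLA-E in D152V rescue minus control was 0.0143 under quantile normalization, 0.0543 with the length trend removed and 0.0287 under median-ratio scaling, and ran from -0.148 to 0.134 over leaving out each library. Causes were not tested.

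Over all tested genes the counts called were 1516 in knockdown minus control (16 to 2697 over all alternatives), 5031 in wild-type rescue minus knockdown (1689 to 6055) and 3355 in D152V rescue minus knockdown (548 to 4389). They were 1627 between the rescue lines (858 to 4209), 1289 in wild-type rescue minus control (560 to 3973) and 1279 in D152V rescue minus control (622 to 3706). With the replicate number as a block, the paired rescue lines changed no call among the class I genes (B2M adjusted p = 0.0841), and the MYB difference between them was lost (limma adjusted p = 0.0640 against 0.0494). In the other comparisons the numbers were not taken to pair the libraries. There HLA-E passed in D152V rescue minus knockdown under the block (-0.36, limma adjusted p = 0.0325), with 3 class I genes called. Leaving out each library moved the gene list counts widely. The regulators higher in wild-type rescue minus knockdown stayed at 5 to 6, while peptide supply genes higher there ran from 0 to 5 and constitutive proteasome genes higher in knockdown minus control from 0 to 6.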

Other observations

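For HLA-E and TAPBP the library numbered 3 was the highest and the library numbered 1 the lowest in each of the 4 groups. HLA-E held 12.3, 12.3, 8.81 and 8.71 FPKM in the libraries numbered 1 of MYB_KnockDown, MYB-WT_Rescue, D152V_Rescue and siRNA_Control, and 15.6, 15.7, 13.3 and 13.4 FPKM in those numbered 3. TAPBP held 22.7, 29.2, 33.5 and 27.5 FPKM in the libraries numbered 1 and 35.8, 33.3, 40.9 and 33.6 in those numbered 3, in the same order of groups.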
